A study of Mus musculus with 12 samples.

Results

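The RNA of 8 mouse genes of programmed cell death was followed in cultures of 3 melanocytic lines with and without SX-682, a small-molecule inhibitor of the chemokine receptors CXCR1 and CXCR2. The genes were taken by symbol from a deposited table of 34513 genes, and each was found once: the death receptors Tnfrsf10b and Fas, their adaptor Fadd, the caspases Casp8, Casp9, Casp2 and Casp6, and Apaf1. Melan-A is a non-tumorigenic mouse melanocyte line, and B16F0 and B16F10 are mouse melanoma lines. Total RNA of each line was sequenced from control cultures, labelled as untreated, and from cultures given SX-682. The 6 groups held 2 libraries each, 12 in all. The labels name no further allele or agent for these groups, and the dose and time of SX-682 are not given in the sources used here.

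Death receptors are membrane proteins that, once bound by ligand, gather the adaptor FADD and the initiator caspase-8 into a complex in which caspase-8 becomes active. In the mitochondrial route, cytochrome c released into the cytosol binds APAF1, which assembles into the apoptosome and activates caspase-9. Both routes end in the cleavage of executioner caspases. Caspases are made as inactive precursors, so an RNA level measures the supply of message and not enzyme activity, which was not measured here.

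The libraries summed to 48876982 to 85322092 counts (median 66943832). Levels are given as CPM, the counts scaled to a common total with edgeR's TMM factors for RNA composition, and a floor of 3 counts, which covers counting error only, was 0.033 to 0.0623 CPM. The chi-square per gene between replicates was 2.87 to 5.25, above what counting alone gives, so no pair was merged. The labels do not say whether replicates were separate cultures, so p-values measure the spread between these libraries, which may be technical. Differences were tested with edgeR's quasi-likelihood F-test over the 18338 genes that passed its expression filter, all 8 genes among them, with Benjamini-Hochberg adjustment at 0.05. The biological coefficient of variation was 2.78%, so small differences could pass. The smallest 2-sided p that an exact permutation of 2 libraries against 2 allows is 0.333, and the model borrows its spread from all genes and all 6 groups. Of the receptors that SX-682 inhibits, Cxcr2 had 79 and 76 counts in Melan-A controls and 34 and 47 with SX-682, against at most 1 count in any B16 library, and Cxcr1 had at most 21 counts in any library. These counts are not scaled for depth. In Melan-A the log2 change of Cxcr2 was -0.66 (SE 0.448, adjusted p = 0.24), which did not pass. That of Cxcr1, from few counts, was -2.44 (SE 0.967, adjusted p = 0.0391). The summed level of 7 melanocyte markers was 1340 to 1370 CPM in Melan-A. Pmel, at 7.53 to 8.7 CPM, and Tyr, at 0.253 to 0.892 CPM, were the lowest of the 7 there. A marker among the 7 was higher in Melan-A than in every B16 library. In B16F0 the sum was 18600 to 18700 CPM in controls and 15800 to 16000 CPM with SX-682, and in B16F10 24400 to 24500 and 14900 to 15200 CPM. Of the markers of other cell types, 6 fibroblast genes summed to 93.5 to 115 CPM in Melan-A and 8.43 to 16.8 CPM in B16. Col3a1 stood at 40.5 to 54.8 CPM in Melan-A and no more than 0.178 CPM in B16. Col1a2 went the other way, at 0.2 to 0.914 CPM in Melan-A, 1.64 to 2.72 CPM in B16F0 and 3.38 to 5.79 CPM in B16F10. The summed level of 6 leukocyte markers was 18.2 CPM in Melan-A controls and 46.2 to 47.8 CPM with SX-682, most of it Cd68. Ptprc, Cd3e and Itgam stayed at or under 0.255 CPM in every library, but not every marker other than Cd68 was that low in Melan-A. Sums of 6 keratinocyte and 4 endothelial markers did not exceed 8.71 and 2.43 CPM. The part of these markers in the results below was not tested. In bulk RNA, fewer expressing cells and less RNA per cell cannot be told apart.

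The promoters of 7 of the 8 genes were read from RefSeq's table for GRCm38.p6 as windows of 300 bases, from 250 before the transcription start to 50 after it; Tnfrsf10b had none there. The bases before the start are shown for the gene with the largest change with SX-682 (Fas), the gene most lowered by it in both B16 lines (Apaf1) and the gene lowered in all 3 lines (Casp8). That of Apaf1 is ended where an exon of the gene begins in GENCODE M21. Capitals mark the motifs found on either strand: AP-1 sites (TGACTCA) and GC boxes (GGGCGG).
Fas: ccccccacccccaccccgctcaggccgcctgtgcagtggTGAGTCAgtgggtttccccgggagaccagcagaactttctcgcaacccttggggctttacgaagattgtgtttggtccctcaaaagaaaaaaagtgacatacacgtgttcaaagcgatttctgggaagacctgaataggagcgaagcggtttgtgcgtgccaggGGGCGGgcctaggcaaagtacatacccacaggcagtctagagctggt
Apaf1: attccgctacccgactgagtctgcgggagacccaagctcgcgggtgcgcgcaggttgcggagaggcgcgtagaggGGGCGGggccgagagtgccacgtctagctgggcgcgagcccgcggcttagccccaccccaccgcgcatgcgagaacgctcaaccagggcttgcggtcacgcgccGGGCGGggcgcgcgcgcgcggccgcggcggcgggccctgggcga
Casp8: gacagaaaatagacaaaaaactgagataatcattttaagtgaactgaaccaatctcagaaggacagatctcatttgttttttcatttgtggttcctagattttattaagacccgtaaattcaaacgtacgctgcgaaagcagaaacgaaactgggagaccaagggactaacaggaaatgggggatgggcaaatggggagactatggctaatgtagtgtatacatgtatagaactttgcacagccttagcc
The Fas sequence is at chr19:34290409-34290658 on the + strand, that of Apaf1 at chr10:91082771-91082993 on the - strand and that of Casp8 at chr1:58802252-58802501 on the + strand. The Casp8 window lies inside the annotated gene, which begins at 58795374, and 1 of the gene's 4 annotated transcripts starts in it. For Fas, 4 of 5 transcripts start within the window, and for Apaf1 3 of 8.

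A GC box was found in the windows of 6 of these 7 genes, all but Casp8, against 35.7% of the 32851 windows in the table. An AP-1 site was found in Fas alone, from 211 to 205 bases before the start, against 5.2% of all windows. The E2F sites TTTGGCGC and TTTCCCGC were searched, and the second was found in Casp2 and Fadd, against 1.56% of all windows for either; in both it shares bases with a GC box. The C/EBP-ATF element TGATGNAA (3.97% of all windows) and the cAMP response element TGACGTCA (1.79%) were in none of the 7. The 250 bases before the start held 39.6% G and C in Casp8 and 56.4% to 75.6% in the other windows, against a median of 52.4% over the table. A match is a run of letters and not a measured binding site.

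**Figure D1:**
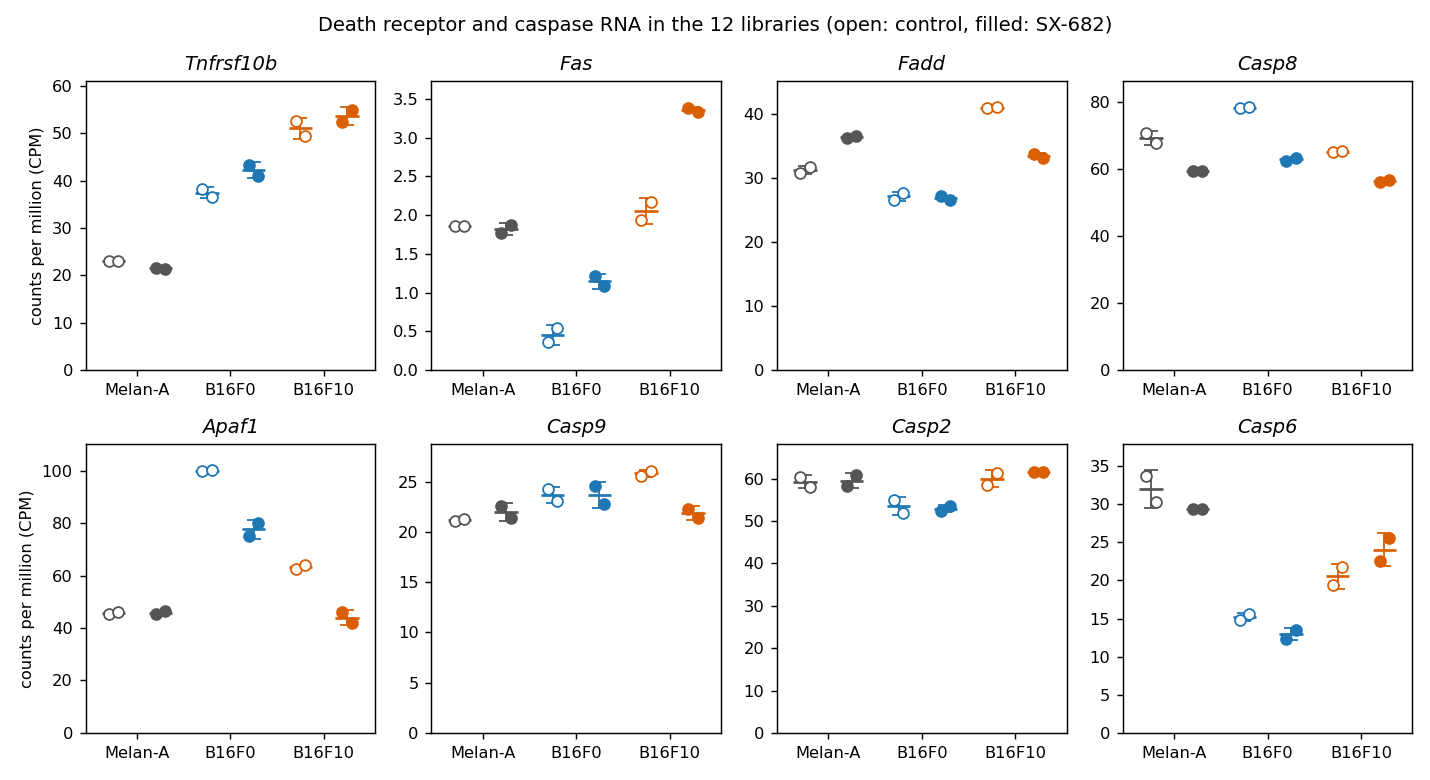
CPM of the 8 genes in each of the 12 libraries, with control libraries as open and SX-682 libraries as filled circles, and each group's mean and SD as a line and bars. Apaf1 falls with SX-682 in both B16 lines and not in Melan-A, Casp8 falls in all 3 lines, and Fas, at no more than 3.38 CPM, rises in both B16 lines.

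The 8 genes were first compared among untreated lines, to give the levels without SX-682. Per kilobase of exon, Casp8 had the highest RNA level of the 8 in every line and Fas the lowest. In CPM per kilobase, Casp8 stood at 23.95 ± 0.688 for Melan-A, 27.08 ± 0.051 for B16F0 and 22.55 ± 0.0916 for B16F10 (SD, n = 2 each), above 86.2% to 89.3% of all genes tested. Fas stood at 0.903 ± 0.00153, 0.221 ± 0.0651 and 0.997 ± 0.0823 CPM per kilobase (SD, n = 2 each), and in B16F0 27.2% of genes tested were lower. The other 6 genes lay between 2.72 and 11.1 CPM per kilobase, where the median over all genes was 2.31 to 2.65. Their order differed between lines: Casp2 came next to Casp8 in Melan-A, Apaf1 in B16F0 and Fadd in B16F10. In B16F0 the libraries of Fadd and Tnfrsf10b, neighbours in the order, overlapped, and in the other untreated lines no neighbours did.

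**Figure D2:**
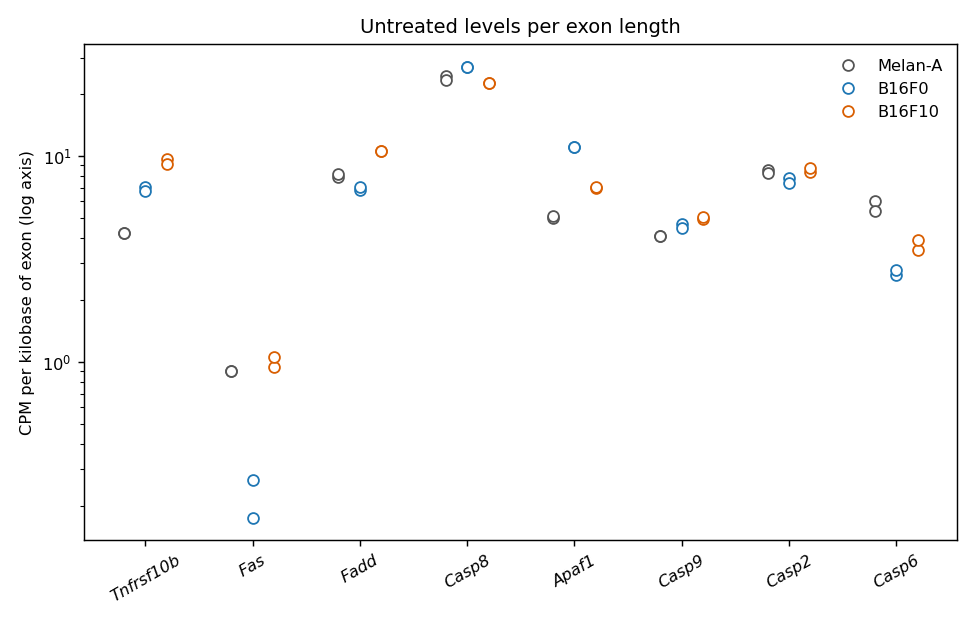
Levels of the 8 genes in the untreated libraries, in CPM per kilobase of exon on a log axis, with 1 circle per library and colours for the lines. Casp8 is the highest gene in each line and Fas the lowest, and Fas in B16F0 lies below all other values.

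Between untreated lines all 8 genes differed from Melan-A in B16F0, 4 higher and 4 lower, where 75.9% of all genes tested passed (35.3% higher and 40.6% lower). In B16F10, 6 of the 8 differed from Melan-A, 4 higher and 2 lower, against 74.2% of all genes (33.4% higher and 40.8% lower). Between the melanoma lines 7 of 8 differed, 5 higher and 2 lower in B16F10, against 62.0% of all genes (30.8% and 31.2%). Many genes differed between these lines, and against Melan-A the counts of members were near those backgrounds. Between the melanoma lines a larger share of the 8 than of all genes was higher in B16F10, and this was not tested. The median log2 difference of the 8 was 0.0071 for B16F0 against Melan-A, 0.21 for B16F10 against Melan-A and 0.30 for B16F10 against B16F0. The medians over all genes were -0.060, -0.10 and -0.0017. With edgeR's RLE size factors, another scaling for RNA composition, in place of TMM the first 2 of these all-gene medians were -0.093 and -0.13.

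**Figure D3:**
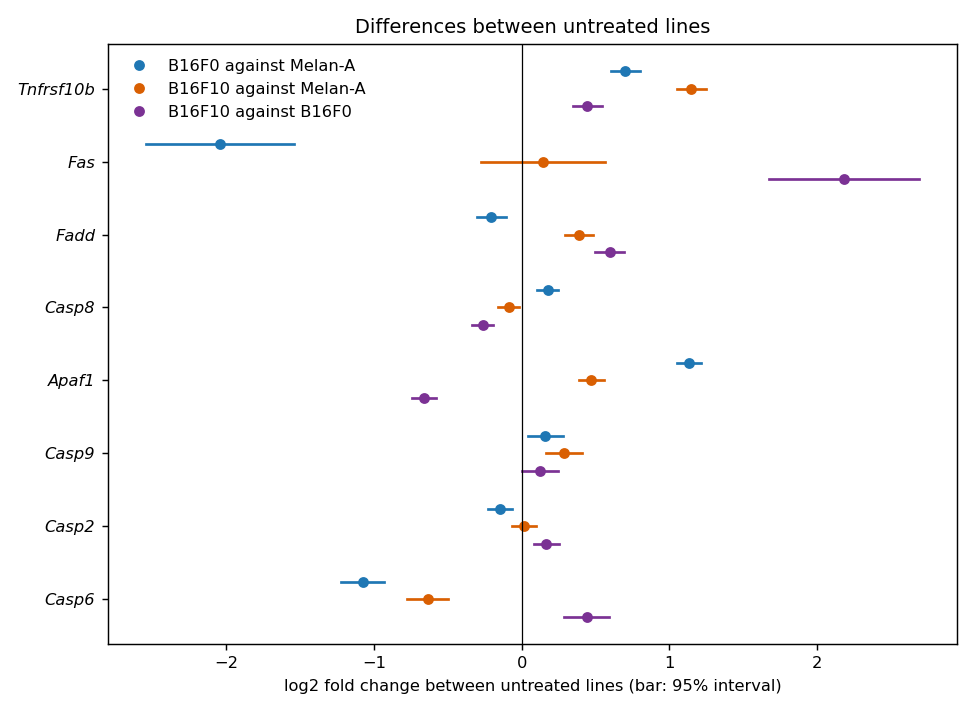
Log2 fold changes of the 8 genes between untreated lines, with 95% intervals as bars. Apaf1 and Tnfrsf10b lie to the right of 0 in both comparisons with Melan-A, Casp6 to the left in both, and Fas is far lower in B16F0 than in either other line.

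With SX-682, 2 of the 8 genes changed in Melan-A, 1 raised and 1 lowered, where 48.2% of all genes tested changed (23.4% raised and 24.7% lowered). In B16F0, 5 changed, 2 raised and 3 lowered, against 50.1% of all genes (25.1% raised and 25.0% lowered). In B16F10, 6 changed, 2 raised and 4 lowered, against 50.8% of all genes (25.5% raised and 25.3% lowered). The median log2 fold change of the 8 was -0.012 for Melan-A, -0.015 for B16F0 and -0.085 for B16F10, and that over all genes was 0 in each line. Only Casp8 of the 8 changed in all 3 lines, where 28.0% of all genes changed in all 3 and 11.7% were lowered in all 3. The change differed among the 3 lines by a direct test for 6 of the 8 genes, all but Casp2 and Casp8, against 47.4% of all genes. It differed between B16F10 and B16F0 for 4 of 8 (30.3% of all genes) and between the mean of the B16 lines and Melan-A for 4 of 8 (35.8% of all genes).

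**Figure D4:**
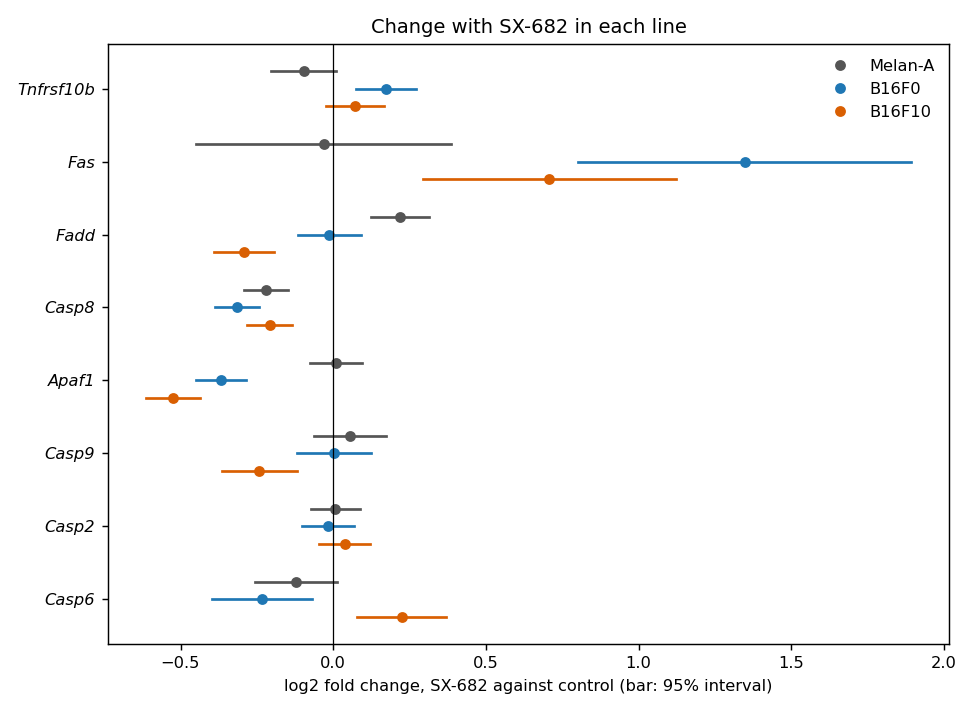
Log2 fold changes with SX-682 of the 8 genes in Melan-A (grey), B16F0 (blue) and B16F10 (orange), with 95% intervals as bars. The 3 intervals of Casp8 lie below 0, those of Casp2 all include 0, and Fadd lies above 0 in Melan-A and below it in B16F10.

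Tnfrsf10b encodes the mouse receptor for the death ligand TRAIL (chromosome 14, 69767472 to 69784411, + strand, GRCm38). It had 23.0 and 23.0 CPM in Melan-A controls and 21.6 and 21.4 CPM with SX-682, 38.3 and 36.6 in B16F0 controls and 43.4 and 41.0 with SX-682, and 52.5 and 49.5 in B16F10 controls and 52.3 and 54.9 with SX-682. All libraries of each line lay apart from those of the other lines, with Melan-A lowest and B16F10 highest. The groups overlapped only in B16F10. Untreated, it was 1.63-fold higher in B16F0 than in Melan-A (log2 0.70, SE 0.0492, adjusted p = 9.51e-14), 2.22-fold higher in B16F10 than in Melan-A (log2 1.15, SE 0.0486, adjusted p = 4.73e-19) and 1.36-fold higher in B16F10 than in B16F0 (adjusted p = 1.7e-09). With SX-682 it rose in B16F0 by 12.8% (log2 0.17, SE 0.0485, adjusted p = 0.00344), and this call was lost without B16F0 control replicate 2 (adjusted p = 0.0623) or without B16F0 SX-682 replicate 1 (adjusted p = 0.0847). Its log2 change was -0.097 in Melan-A (adjusted p = 0.128) and 0.072 in B16F10 (adjusted p = 0.215), with 95% intervals of -0.20 to 0.0089 and -0.024 to 0.17. The mean change of the B16 lines exceeded that of Melan-A (log2 0.22, SE 0.0617, adjusted p = 0.00542). Of the 50-base words in its exons, 6.21% also occur in other genes, most of all Gm15574, which had 0 to 4 counts in any library.

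Fas encodes the receptor for Fas ligand (chromosome 19, 34290666 to 34327772, + strand). Its counts were low: 161 and 169 in Melan-A controls and 126 and 141 with SX-682, 27 and 37 in B16F0 controls and 80 and 52 with SX-682, and 117 and 139 in B16F10 controls and 205 and 195 with SX-682. In CPM these were 1.87 and 1.86 against 1.77 and 1.88 in Melan-A, 0.360 and 0.550 against 1.21 and 1.08 in B16F0, and 1.94 and 2.18 against 3.38 and 3.33 in B16F10. Both SX-682 libraries lay above both controls in each B16 line, while the Melan-A groups overlapped. Fas rose 2.54-fold in B16F0 (log2 1.35, SE 0.266, adjusted p = 8.32e-05) and 1.63-fold in B16F10 (log2 0.71, SE 0.202, adjusted p = 0.00398). In Melan-A the log2 change was -0.031 with a 95% interval of -0.45 to 0.39 (adjusted p = 0.925). The mean B16 change exceeded that of Melan-A (log2 1.06, SE 0.264, adjusted p = 0.00188), and the B16 lines were not told apart from each other (log2 difference -0.64, interval -1.33 to 0.046, adjusted p = 0.164). Untreated B16F0 stood at a fold of 0.243 against Melan-A (log2 -2.04, SE 0.244, adjusted p = 1.17e-08), and B16F10 was 4.54-fold above B16F0 (adjusted p = 6.2e-09) and not distinguishable from Melan-A (adjusted p = 0.542). With SX-682, B16F0 remained at fewer CPM of Fas than the Melan-A and B16F10 controls. The AP-1 run and the GC box shown above lie in this gene's promoter.

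Fadd encodes the adaptor that joins the receptors to caspase-8 (chromosome 7, 144577318 to 144582463, - strand). It had 30.9 and 31.7 CPM in Melan-A controls and 36.3 and 36.6 with SX-682, 26.6 and 27.7 in B16F0 controls and 27.2 and 26.6 with SX-682, and 41.0 and 41.0 in B16F10 controls and 33.8 and 33.1 with SX-682. The groups lay apart in Melan-A, where SX-682 was higher, and in B16F10, where it was lower, and they overlapped in B16F0. Fadd rose by 16.4% in Melan-A (log2 0.22, SE 0.0463, adjusted p = 0.000195) and fell by 18.4% in B16F10 (log2 -0.29, SE 0.0477, adjusted p = 4.95e-06). In B16F0 the log2 change was -0.013 with an interval of -0.12 to 0.090 (adjusted p = 0.877). The change in B16F10 was below that in B16F0 (log2 difference -0.28, SE 0.0693, adjusted p = 0.00227), and the change over the 3 lines differed with an adjusted p of 8.94e-07. Untreated, Fadd was 1.31-fold higher in B16F10 than in Melan-A (adjusted p = 1.13e-08) and lower in B16F0 than in Melan-A (log2 -0.21, adjusted p = 0.000298). Antisense gene Faddos shares 239 bases with the exons of Fadd, 6.12% of them. The counting's use of strand is not given in the sources used here, so reads there cannot be assigned between the pair; Faddos had 0 to 65 counts per library and Fadd 1279 or more.

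Casp8 encodes the initiator caspase of the receptor route (chromosome 1, 58795374 to 58847503, + strand). It had 70.7 and 67.9 CPM in Melan-A controls and 59.4 and 59.5 with SX-682, 78.2 and 78.5 in B16F0 controls and 62.6 and 63.4 with SX-682, and 65.0 and 65.4 in B16F10 controls and 56.1 and 56.8 with SX-682. In each line both SX-682 libraries lay below both controls. Casp8 fell by 14.2% in Melan-A (log2 -0.22, SE 0.0349, adjusted p = 3.77e-06), by 19.6% in B16F0 (log2 -0.32, SE 0.0357, adjusted p = 1.04e-08) and by 13.5% in B16F10 (log2 -0.21, SE 0.0366, adjusted p = 1.53e-05). These changes spanned 0.11 on the log2 scale and were not told apart among the lines (adjusted p = 0.153). Untreated, B16F0 was above Melan-A (log2 0.18, SE 0.0343, adjusted p = 3.38e-05) and above B16F10 (log2 -0.26 for B16F10 against B16F0, SE 0.0353, adjusted p = 1.29e-07). The difference of B16F10 from Melan-A was small (log2 -0.087, adjusted p = 0.0274), and the call was lost in 9 of 20 alternatives. These were no filter on low counts (adjusted p = 0.205), a separate fit (0.0884), and leaving out Melan-A control replicate 1 (0.28), either Melan-A SX-682 library (0.0509 and 0.0548), either B16F0 control (0.0546 and 0.0584) or either B16F10 control (0.121 and 0.118). Of the 50-base words in its exons, 4.37% also occur in other genes, most of all Gm20257, which had 4 to 49 counts against 3053 or more for Casp8. The promoter window shown above for Casp8 held none of the motifs searched.

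Apaf1 encodes the scaffold of the apoptosome (chromosome 10, 90989311 to 91082770, - strand). It had 45.2 and 46.0 CPM in Melan-A controls and 45.3 and 46.5 with SX-682, 99.7 and 100.2 in B16F0 controls and 75.1 and 80.1 with SX-682, and 62.7 and 63.9 in B16F10 controls and 46.0 and 42.0 with SX-682. The Melan-A groups overlapped, while in both B16 lines the SX-682 libraries lay well below the controls. Apaf1 fell by 22.4% in B16F0 (log2 -0.37, SE 0.0398, adjusted p = 4.52e-09) and decreased by 30.5% in B16F10 (log2 -0.52, SE 0.0431, adjusted p = 1.15e-11). In Melan-A the log2 change was 0.0088, with an interval of -0.077 to 0.095 (adjusted p = 0.892). The mean B16 change was below that of Melan-A (log2 -0.45, SE 0.0513, adjusted p = 2.2e-08). The fall was larger in B16F10 than in B16F0 (log2 difference -0.16, adjusted p = 0.0414), a call lost without either B16F0 control, either B16F10 control, B16F0 SX-682 replicate 2 (adjusted p = 0.183) or B16F10 SX-682 replicate 2 (adjusted p = 0.328). Untreated, Apaf1 was 2.19-fold higher in B16F0 (log2 1.13, SE 0.0401, adjusted p = 5.05e-21) and 1.39-fold higher in B16F10 (log2 0.47, SE 0.0415, adjusted p = 1.96e-11) than in Melan-A. With SX-682, the B16F10 libraries at 42.0 and 46.0 CPM reached the range of the Melan-A controls, and the B16F0 libraries stayed above it.

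Casp9 encodes the caspase that the apoptosome activates (chromosome 4, 141793612 to 141815976, + strand). It had 21.1 and 21.3 CPM in Melan-A controls and 22.6 and 21.4 with SX-682, 24.3 and 23.1 in B16F0 controls and 24.6 and 22.8 with SX-682, and 25.6 and 26.1 in B16F10 controls and 22.3 and 21.4 with SX-682. The SX-682 libraries lay below the controls in B16F10 and slightly above them in Melan-A, and the groups overlapped in B16F0. In B16F10 Casp9 fell by 15.4% (log2 -0.24, SE 0.06, adjusted p = 0.00105), beside log2 changes of 0.055 in Melan-A (adjusted p = 0.477) and 0.0025 in B16F0 (interval -0.12 to 0.12). The difference among lines passed (adjusted p = 0.00863), but not after all libraries were thinned to the depth of the smallest (adjusted p = 0.0555) or without B16F10 SX-682 replicate 2 (adjusted p = 0.0528). That between the B16 lines was a log2 of -0.24 (adjusted p = 0.0276), a call lost in 6 of 20 alternatives: without B16F0 control replicate 2 (adjusted p = 0.115), B16F0 SX-682 replicate 1 (0.17), B16F10 control replicate 1 (0.0515) or 2 (0.0759) or B16F10 SX-682 replicate 2 (0.112), and after thinning (0.0894). Untreated, Casp9 was 1.22-fold higher in B16F10 than in Melan-A (log2 0.29, SE 0.058, adjusted p = 6.15e-05), and 1.12-fold higher in B16F0 (log2 0.16, adjusted p = 0.013), a call lost in 5 of 20 alternatives: DESeq2 (0.083), at least 10 counts per library (0.0539), thinning (0.0591), and without Melan-A control replicate 1 (0.0573) or B16F0 control replicate 1 (0.127). Exons of Cela2a and Ctrc on the opposite strand each share 94 bases with Casp9, and those genes had at most 2 counts in any library.

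Casp2 encodes a caspase activated in the PIDDosome, a complex of PIDD1 and CRADD (chromosome 6, 42264985 to 42282508, + strand). It had 60.4 and 58.1 CPM in Melan-A controls and 58.3 and 60.7 with SX-682, 54.9 and 52.0 in B16F0 controls and 52.3 and 53.5 with SX-682, and 58.6 and 61.4 in B16F10 controls and 61.6 and 61.6 with SX-682. The groups overlapped in Melan-A and B16F0, and in B16F10 both SX-682 libraries lay just above the higher control. Its log2 changes with SX-682 were 0.0071, -0.016 and 0.038 in Melan-A, B16F0 and B16F10 (adjusted p = 0.908, 0.805 and 0.485), and the 95% intervals together reached from -0.10 to 0.12. Untreated, Casp2 was lower in B16F0 than in Melan-A (log2 -0.15, adjusted p = 0.0015, or 0.0636 without B16F0 control replicate 2) and 1.12-fold higher in B16F10 than in B16F0 (log2 0.17, adjusted p = 0.000756).

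Casp6 encodes an executioner caspase that cleaves nuclear lamins (chromosome 3, 129901425 to 129914103, + strand). It had 33.8 and 30.2 CPM in Melan-A controls and 29.4 and 29.4 with SX-682, 14.8 and 15.6 in B16F0 controls and 12.4 and 13.5 with SX-682, and 19.4 and 21.7 in B16F10 controls and 22.5 and 25.6 with SX-682. Every Melan-A library lay above every B16 library, and the B16F0 libraries were the lowest. Casp6 fell by 14.9% in B16F0 (log2 -0.23, SE 0.0792, adjusted p = 0.0148) and rose by 16.8% in B16F10 (log2 0.22, SE 0.0718, adjusted p = 0.00965). Each of these calls rested on single libraries: that in B16F0 was lost without B16F0 control replicate 2 (adjusted p = 0.0952) or B16F0 SX-682 replicate 1 (adjusted p = 0.192), and that in B16F10 without B16F10 control replicate 1 (adjusted p = 0.181) or B16F10 SX-682 replicate 2 (adjusted p = 0.226). The difference between the B16 lines itself passed (log2 0.46, SE 0.107, adjusted p = 0.00129) with adjusted p-values up to 0.0158 over the 20 alternatives that refit it; at 0.46 it lies under the fold limit of 0.5. In Melan-A the log2 change was -0.12 (interval -0.25 to 0.012, adjusted p = 0.132), and it passed without Melan-A control replicate 2 (adjusted p = 0.0321). Untreated, Casp6 stood at a fold of 0.474 in B16F0 against Melan-A (log2 -1.08, SE 0.0697, adjusted p = 1.51e-14), and at a fold of 0.643 in B16F10 (log2 -0.64, SE 0.0683, adjusted p = 1.4e-09).

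The genes whose log2 CPM ran most like each member over the 12 libraries, of 10957 genes at a mean log2 CPM of at least 1, were Commd6 for Tnfrsf10b (Pearson r = 0.997), Xpnpep1 for Apaf1 (0.994), Angel2 for Casp6 (0.987), Trim37 for Casp8 (0.986), Lman1 for Fadd (0.982), Trip4 for Fas (0.976), Copz2 for Casp2 (0.961) and Fitm2 for Casp9 (0.956). These are descriptions, each the best of many genes, and the 12 points fall into 3 lines that differ in most genes.

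Other genes of the death pathways were then described from lists grouped by role, with the same test and the backgrounds given above. Of 11 other death receptors and decoys, 5 were raised and 1 lowered in Melan-A, 3 and 5 in B16F0, and 2 and 3 in B16F10. Their median log2 changes were 0.64, -0.30 and 0.26 in that order of lines, beside 0 over all genes. The Melan-A median was the value of a gene near the floor that was not called there. It had 0 and 3 counts in controls and 4 and 0 with SX-682, so this median is no measure of a shared rise. Ngfr, the p75 neurotrophin receptor, had 5 and 4 counts in Melan-A controls against 15 and 19 with SX-682 (log2 2.15, SE 0.449, adjusted p = 0.000171), fell in B16F0 (log2 -0.47, adjusted p = 2.65e-06) and rose in B16F10 (log2 0.26, adjusted p = 1.5e-06), where it stood at 108.2 and 108.3 CPM untreated. Tnfrsf22, a decoy receptor for TRAIL, rose in Melan-A (log2 0.94, adjusted p = 9.1e-08) and fell in B16F0 (log2 -0.30, adjusted p = 0.00808) and B16F10 (log2 -0.56, adjusted p = 4.47e-05). Tnfrsf1a, the main TNF receptor, was the receptor raised in all 3 lines (log2 0.16, 0.30 and 0.34). It was chosen after its values were seen, as were Tnf, Tnfsf10, Fasl, Cflar, Cycs, Aifm1, Birc5 and Parp1 below.

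Of 6 death ligands only 3 passed the expression filter, and all were low, with 0 changed in Melan-A, 1 raised in B16F0 and 1 lowered in B16F10. Fasl, the ligand of Fas, had 0 counts in 11 libraries and 4 in the other. Tnfsf10, which encodes TRAIL, had 41 and 27 counts in B16F10 controls and 4 and 10 with SX-682 (log2 -2.20, SE 0.672, adjusted p = 0.00668), and at most 5 counts in any B16F0 library. Tnf had 25 and 32 counts in B16F0 controls and 98 and 68 with SX-682 (log2 1.84, SE 0.493, adjusted p = 0.00232). The ligand genes of both receptors were thus near the floor in B16F0.

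Of 11 adaptors and regulators of death complexes, 4 were raised and 2 lowered in Melan-A, 3 and 4 in B16F0, and 4 and 2 in B16F10, with median log2 changes of 0.095, -0.042 and 0.023. Casp8ap2, whose product FLASH was first described as a partner of caspase-8 and takes part in histone RNA processing, was lowered in all 3 lines (log2 -0.57, -0.77 and -0.84, adjusted p = 5.23e-11, 1.33e-12 and 2.52e-14). Faf1, a Fas-associated factor, was raised in all 3 (log2 0.45, 0.63 and 0.82, adjusted p = 1.36e-11, 5.2e-15 and 6.99e-18). Cflar, which encodes the caspase-8 inhibitor c-FLIP, rose in Melan-A (log2 0.29, adjusted p = 6.8e-07) and fell in B16F0 (log2 -0.26, adjusted p = 1.8e-06) and B16F10 (log2 -0.66, adjusted p = 1.94e-14). Its Melan-A controls had 69.0 and 65.5 CPM against 82.4 and 81.6 with SX-682, and its B16F10 controls 125.7 and 136.4 against 84.8 and 81.6.

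Casp4, an inflammatory caspase that senses lipopolysaccharide, rose in all 3 lines (log2 0.96, 1.10 and 1.06, adjusted p = 3.35e-10, 2.48e-08 and 1.05e-10).

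Of 8 apoptosome, mitochondrial and PIDDosome factors, 3 were raised and 2 lowered in Melan-A, 2 and 3 in B16F0, and 2 and 4 in B16F10, with median log2 changes of 0.0064, -0.075 and -0.14. Cycs, the cytochrome c that binds APAF1, was lowered in all 3 lines (log2 -0.33, -0.34 and -0.46), as was Aifm1 (log2 -0.41, -0.47 and -0.49). Htra2, a mitochondrial protease that antagonises inhibitors of apoptosis, was raised in all 3 (log2 0.54, 0.48 and 0.60, adjusted p = 2.3e-14, 3.44e-13 and 1.45e-15). Cradd, the PIDDosome adaptor, was raised in all 3 as well (log2 0.57, 0.44 and 0.37, adjusted p = 0.00266, 0.00589 and 0.0393). Untreated, 7 of these 8 genes were higher in B16F0 than in Melan-A and 6 in B16F10, with 0 lower in either. Their median log2 differences were 0.67 and 0.85. Over all genes tested 35.3% and 33.4% were higher, with medians of -0.060 and -0.10. In B16F0 against Melan-A, genes of each of the other lists described here went both ways. In B16F10 against Melan-A they did so in each but the death ligands, with 1 higher and 0 lower of 3 tested. Whether the apoptosome list stands apart was not tested.

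Of 9 inhibitors of apoptosis and their antagonist 8 were tested, with 2 raised and 4 lowered in Melan-A, 4 and 1 in B16F0, and 3 and 2 in B16F10, with median log2 changes of -0.087, 0.087 and -0.097. Birc2, a ubiquitin ligase that restrains death signalling from TNF receptors, rose in all 3 lines (log2 0.55, 0.62 and 0.65, adjusted p = 1.07e-09, 1.51e-10 and 1.11e-11). Xaf1, an antagonist of XIAP, rose in all 3 (log2 0.58, 0.42 and 0.91, adjusted p = 2.31e-10, 0.00783 and 9.4e-08) from very unequal levels, 53.3 and 55.4 CPM in Melan-A controls against at most 2.86 CPM in untreated B16 libraries. Birc5, which encodes survivin, a protein of dividing cells, was lowered in all 3 (log2 -0.50, -0.68 and -0.11).

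Of 12 caspase substrates and execution genes 11 were tested, with 1 raised and 5 lowered in Melan-A, 2 and 5 in B16F0, and 2 and 5 in B16F10. Acin1, whose product condenses chromatin after caspase cleavage and also takes part in splicing, was lowered in all 3 lines (log2 -0.79, -0.56 and -0.92, adjusted p = 1e-17, 2.01e-14 and 2.25e-19). Xkr8, a scramblase that exposes phosphatidylserine after caspase cleavage, was lowered in all 3 (log2 -0.31, -0.61 and -0.51, adjusted p = 0.00654, 2.25e-05 and 0.000177), as was Parp1 (log2 -0.40, -0.15 and -0.47). The median log2 change of the 11 was -0.13 for Melan-A, -0.15 for B16F0 and -0.31 for B16F10, beside 0 over all genes.

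**Figure D5:**
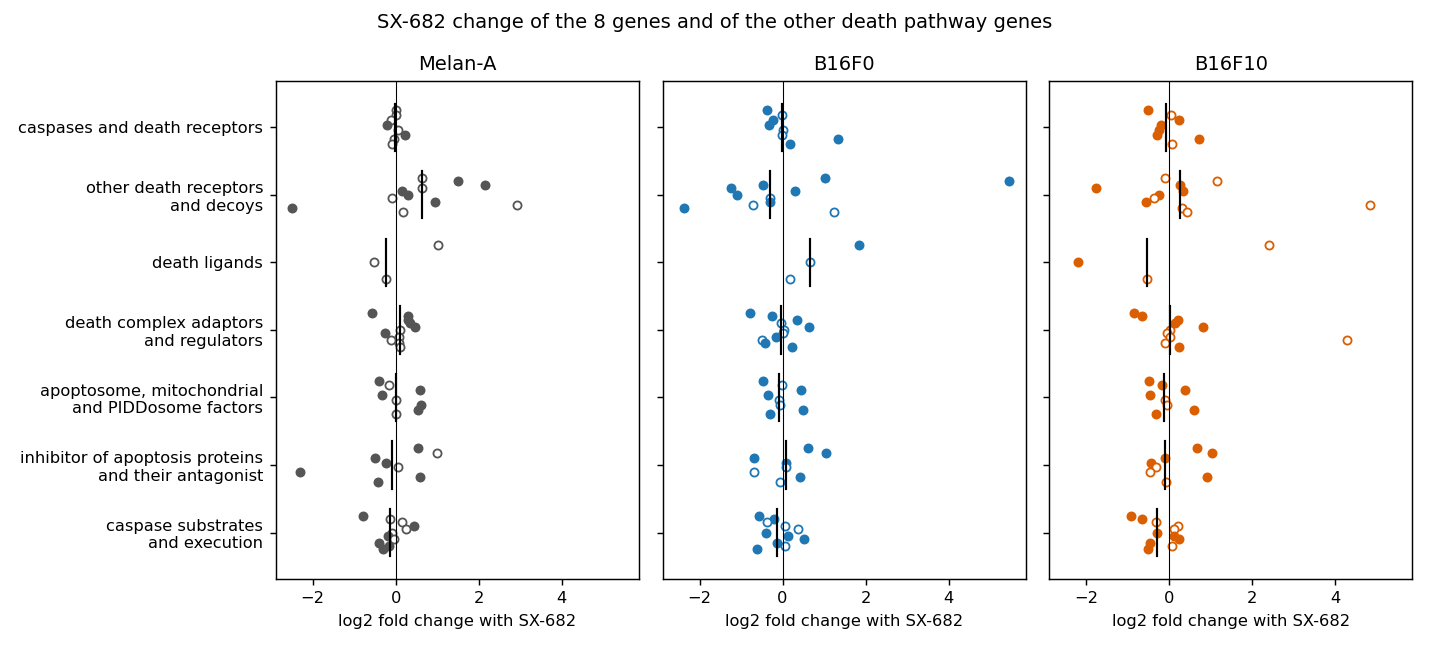
Log2 fold changes with SX-682 of the 8 caspase and death receptor genes (top) and of 6 lists of other death pathway genes in each line, with 1 circle per gene, filled where the adjusted p was under 0.05, and a vertical line at each list's median. The medians of the 8 genes lie at -0.012, -0.015 and -0.085, and members of every list with more than 3 genes tested moved both ways in at least 1 line.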

How the data were processed

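The authors sequenced 12 RNA libraries from cultured cells and deposited a table of raw read counts per gene for 34513 genes, with a length for each gene. The submitters' processing notes name cutadapt, STAR, DESeq2 and the build mm10, with no versions, roles or order, and the counting program and its use of strand are not given in the sources used here. Columns were mapped to samples by their labels, and 0 columns of per-sample values were left unused. The table holds no comparisons by the authors.

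The deposited counts were fitted in R 4.3.3 with edgeR 4.0.16 (TMM, filterByExpr, quasi-likelihood F-test, prior count 0.125) over all 12 libraries, 1 coefficient for each of the 6 groups, with Benjamini-Hochberg adjustment over 18338 genes at 0.05. Residual degrees of freedom were 6 and prior ones 21.9. Intervals are 95% intervals of the log2 fold change. The code was run on simulated counts in which few genes changed with treatment and the lines did not differ. These data differ in both respects, so that run checks the code and not the calls made here. Library totals (48876982 to 85322092) set the precision of low genes such as Fas.

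The 8 genes, the 7 lists and the marker lists were chosen with earlier results of these data known. Beside the 8 genes, the text names the 2 genes of each list with the largest mean absolute SX-682 change (mean log2 CPM of at least 1, called in at least 1 line), the gene most correlated with each member, genes that share exon sequence with a member, markers, and the receptors of SX-682; exceptions are marked. The list of other caspases, apart from Casp4, and 1 marker are not reported here. Positions are from GENCODE M21 (GRCm38), whose coordinates matched the gene IDs and lengths of the table for 33821 genes, and promoters from RefSeq (GRCm38.p6).

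Alternatives were DESeq2 1.42.0, RLE size factors, no filter on low counts, a minimum of 10 counts in each library, separate fits of the libraries compared, the replicate number as a block, a prior count of 2, an absolute log2 fold change over 0.5, libraries thinned to the smallest total, and each library left out in turn.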

Additional observations from a re-analysis of the deposited data

Results flagged for a closer look

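For 17 of the genes named with a test, the log2 change with SX-682 differed among the 3 lines by a direct test in edgeR (adjusted p under 0.05). Over all genes tested 47.4% passed the same test. Genes outside the 8 were named for large SX-682 changes or after their values were seen, so the 17 are no measure of the pathway. The value given for each is the span from the lowest to the highest of the 3 log2 changes. Of the 8 caspase and death receptor genes, the span was 1.38 for Fas (adjusted p = 0.00322), 0.533 for Apaf1 (4.3e-08), 0.513 for Fadd (8.94e-07), 0.457 for Casp6 (0.00131), 0.296 for Casp9 (0.00863) and 0.270 for Tnfrsf10b (0.00732). The change of Fas was highest in B16F0, where it was not told apart from that in B16F10 (edgeR, adjusted p = 0.164). That of Apaf1 was lowest in B16F10, and its difference from B16F0 lost the call in 6 of 20 alternatives. Fadd and Casp6 moved in opposite directions in 2 lines.

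Among the other death pathway genes the span was 2.62 for Ngfr (adjusted p = 8.47e-09), where the Melan-A value rests on 5 and 4 counts in controls. It was 1.50 for Tnfrsf22 (8.59e-09), which changed sign between lines. It was 0.496 for Xaf1 (0.0433), 0.362 for Faf1 (4.17e-06), 0.355 for Acin1 (2.01e-06) and 0.270 for Casp8ap2 (0.00686), which moved the same way in each line by unequal amounts. Of the genes chosen after their values were seen, the span was 0.942 for Cflar (2.02e-13), which changed sign between lines, 0.566 for Birc5 (9.69e-11), 0.326 for Parp1 (7.37e-09), 0.175 for Tnfrsf1a (0.00148) and 0.135 for Cycs (0.00259), which did not.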

How the results depend on the processing

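Over 72 member values and 1424 alternatives, 1350 kept direction and side of the threshold, 35 lost the call, 9 gained one and 30 changed sign. The changes with SX-682 of Casp8 in all 3 lines and of Apaf1 and Fas in both B16 lines passed in every alternative run other than the fold limit that follows. Requiring an absolute log2 fold change over 0.5 left 2989, 3561 and 3944 genes with SX-682 in Melan-A, B16F0 and B16F10, and 0, 1 and 2 of the 8 members. The members left were Fas in both B16 lines and Apaf1 in B16F10. Casp8 in each line and Apaf1 in B16F0 fell under the limit. Between untreated lines the limit left 4, 2 and 3 members for B16F0 against Melan-A, B16F10 against Melan-A and B16F10 against B16F0. It left 6218 of the 18338 genes tested between the B16 lines. Against Melan-A it left at least 9709 for B16F0 and at least 9217 for B16F10, the lowest counts over all 20 alternatives. With 2 members for B16F10 against Melan-A, the limit left a smaller share of the 8 than of all genes, which was not tested. For the difference in change it left 3738 genes among the lines, 1542 between the B16 lines and 2013 between B16 and Melan-A, with 3, 0 and 1 members; small changes make up most member calls.

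Signs changed only for values that did not pass. Casp2 in untreated B16F10 against Melan-A was -0.011 with DESeq2, -0.011 with RLE size factors and -0.047 with at least 10 counts in every library. Its mean B16 change less that of Melan-A was -5.1e-05 with RLE, -0.012 without a filter and -0.0010 with at least 10 counts. Casp9 in B16F0 was -0.0028 without a filter and -0.012 thinned, Fas in Melan-A 0.068 thinned, and Fadd in B16F0 0.0013 with DESeq2 and 0.0015 with RLE.

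Leaving out each library in turn, the fewest members were called in B16F0 without its control replicate 2 or SX-682 replicate 1. For the difference between the B16 lines, the fewest were called without B16F0 control replicate 2, either B16F10 control or B16F10 SX-682 replicate 2. Log2 changes with SX-682 ranged from -0.016 to 0.047 (Casp2, Melan-A), -0.058 to 0.025 (Casp2, B16F0), -0.057 to 0.054 (Casp9, B16F0), -0.0019 to 0.038 (Apaf1, Melan-A), -0.068 to 0.024 (Fas, Melan-A) and -0.042 to 0.012 (Fadd, B16F0). Casp2 ranged from -0.0050 to 0.056 in untreated B16F10 against Melan-A and from -0.038 to 0.025 in mean B16 change less that of Melan-A. Causes were not tested.

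With the replicate block, 2, 5 and 6 members passed with SX-682 in Melan-A, B16F0 and B16F10, as without it, and 8824, 9150 and 9302 genes did, against 8831, 9187 and 9321. Within each line, same-numbered libraries did not deviate together (r = -0.028, -0.011 and -0.0089 over 9361 genes), so no pairing by number was seen there. Numbers were not compared in this way across lines. A separate fit could not be made for the comparisons that use all 12 libraries. With 27 to 205 counts per library, changes of Fas are the least precise of the 8.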
